A study of Mus musculus with 6 samples.

Results

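The early response genes described here are 10 genes that cells switch on within a short time of a stimulus, without first making new protein: the zinc finger factors Egr1, Egr2 and Egr3, the nuclear receptors Nr4a1, Nr4a2 and Nr4a3, the Krüppel-like factors Klf2, Klf4 and Klf6, and Ier2. They were chosen by name from the 38561 genes of the count tables, and each symbol matched a single Ensembl gene. RNA was sequenced from 6 libraries in 3 groups of 2, all from mice of mixed background with the genotype NG2-Cre;p53flox/flox. One group was cells that an NG2 antibody had sorted out of skeletal muscle, labelled perivascular and normal and called NG2 cells here. The others were primary malignant tumours that arose in such mice: osteosarcomas of the right tibia (replicate 1) and of the lumbar spine (replicate 2), and subcutaneous soft tissue sarcomas. In these mice Cre recombinase is driven from the promoter of Cspg4, which encodes NG2, and cuts the floxed segment out of Trp53, a tumour suppressor. The NG2 cells carried the same alleles, so no group was without them, and the series' design text describes only the NG2 cells as sorted. The labels do not say whether the libraries came from separate animals, so the spread that p-values measure here may not be that between animals. The osteosarcoma libraries came from tumours at different sites, so their spread is not only technical. Within the NG2 cells and the soft tissue sarcomas it may be technical.

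As background, early response genes are held ready for transcription and respond to growth factors, stress, cyclic AMP or shear through factors that are already in the nucleus, such as SRF with its Elk partners and CREB. Their transcripts are short-lived, and tissue handling is itself known to induce them. Egr proteins bind GC-rich sites through zinc fingers, Nr4a receptors are orphan nuclear receptors that act without a known physiological ligand, and Klf factors bind GC and CACCC boxes and govern quiescence and differentiation in endothelium, blood cells and the smooth muscle of vessels.

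Counts on genes ranged from 27693585 to 58126832 per library. Values below are normalised read counts (CPM, counts scaled to library size with TMM factors), and a gene was called when its edgeR adjusted p was under 0.05. All 10 members passed the filter on low counts, and no other annotated gene overlapped any of them in GENCODE M21. In NG2 cells 8 of 8 pericyte and mural cell markers reached 1 CPM, but so did 8 of 8 B cell, 8 of 8 T cell and 8 of 8 neutrophil markers. Osteosarcoma libraries held 38172 and 39312 CPM in 8 osteoblast genes, against 102 and 136 CPM in the NG2 cells and 4352 and 3999 CPM in the soft tissue sarcomas. Reads that the counting assigned to no gene feature were 33.2% of the total in each NG2 cell library, and between 19.5% and 23.4% in tumours. Where these reads lay was not examined. The flow cell lane was 4 for NG2 cells, 5 for osteosarcoma and 6 for soft tissue sarcoma, so lane and group cannot be told apart.

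The 10 genes together took 5432 and 6003 CPM in the NG2 cell libraries, 564 and 260 CPM in the osteosarcomas, and 344 and 320 CPM in the soft tissue sarcomas. Each of the 10 members was higher in both NG2 cell libraries than in any tumour library. The gap was narrowest for Ier2, whose lower NG2 cell library stood 4.37-fold above the highest tumour library, and widest for Nr4a1, at 50.9-fold. In osteosarcoma against NG2 cells 10 of 10 members fell, where 21.5% of all 19024 tested genes were called, 11% lower and 10.5% higher. In soft tissue sarcoma against NG2 cells 9 of 10 fell, where 19.3% of the tested genes were called, 9.4% lower and 9.89% higher, and Egr3 did not pass. Groups that did not overlap in this direction were common: 32.4% of tested genes had both osteosarcoma libraries below both NG2 cell libraries, and 34.6% had both soft tissue sarcoma libraries below them, while 32.7% and 35.8% had them above. The median log2 fold change of the members was -4.41 in osteosarcoma and -4.72 in soft tissue sarcoma, against 0.04 and 0.00 over all tested genes. Both comparisons use the same NG2 cell libraries. In bulk samples such as these, fewer cells of a type and less RNA per cell cannot be told apart.

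**Figure D1:**
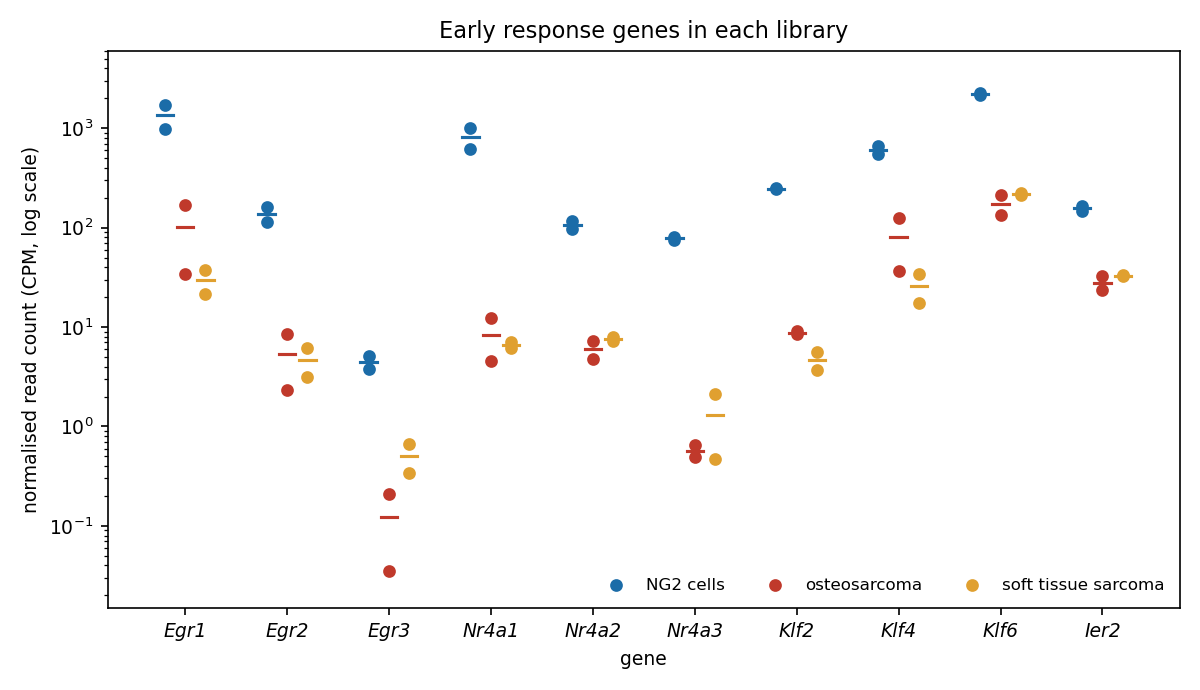
Normalised read counts (CPM, log scale) of the 10 early response genes in each of the 6 libraries, with points for libraries and short lines for the mean of 2 libraries. For each gene both NG2 cell points lie above all 4 tumour points, with the narrowest gap at Ier2 and the widest at Nr4a1, and the osteosarcoma points of Egr1 lie far apart, at 168 and 34.0 CPM.

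Among the Egr factors, Egr1 was by far the most abundant. Egr1 (ENSMUSG00000038418; chromosome 18, 34859823 to 34864984, GRCm38, plus strand), a growth and stress induced activator that also acts as a tumour suppressor in some cells, had 973 and 1718 CPM in the NG2 cells, 168 and 34.0 CPM in osteosarcoma replicates 1 and 2, and 37.7 and 21.5 CPM in the soft tissue sarcomas. Both NG2 cell libraries were high, soft tissue sarcoma was low, and the osteosarcomas were 4.93-fold apart, with replicate 2 within the range of the soft tissue sarcomas. Egr1 fell 13.3-fold in osteosarcoma (a log2 fold change of -3.74 with an SE of 0.83, 2 libraries a group; adjusted p = 0.0301, edgeR) and 45.5-fold in soft tissue sarcoma (-5.51 ± 0.91; adjusted p = 0.0162). Leaving out osteosarcoma replicate 1 moved the first value to -5.34, and leaving out replicate 2 moved it to -3.01.

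Egr2 (ENSMUSG00000037868; chromosome 10, 67535475 to 67542188, plus strand), known for myelination by Schwann cells and for restraint of lymphocyte activation, had 114 and 159 CPM in the NG2 cells. In osteosarcoma it had 8.49 and 2.35 CPM and in soft tissue sarcoma 3.15 and 6.10 CPM, so the tumour groups overlapped and stood apart from the NG2 cells. Egr2 fell 25.1-fold in osteosarcoma (on the log2 scale -4.65 ± 0.74, adjusted p = 0.0136) and 29.7-fold in soft tissue sarcoma (-4.89 ± 0.75, adjusted p = 0.0143). Without osteosarcoma replicate 1 the osteosarcoma value was -5.89, and without replicate 2 it was -4.01. Egr3 (ENSMUSG00000033730; chromosome 14, 70077203 to 70082614, plus strand), which acts in muscle spindles and in T cell anergy, was the scarcest member, with 5.07 and 3.76 CPM in the NG2 cells, 0.208 and 0.0355 CPM in the osteosarcomas and 0.671 and 0.337 CPM in the soft tissue sarcomas. The osteosarcoma values of Egr3 rested on 11 and 1 counts. Egr3 fell in osteosarcoma by 5.07 ± 1.12 on the log2 scale (adjusted p = 0.0291), with values of -6.87 and -4.39 without osteosarcoma replicate 1 and replicate 2, the second at an adjusted p of 0.0554. Its value in soft tissue sarcoma, -3.11 ± 1.01, missed the threshold (adjusted p = 0.0778). DESeq2 placed that value below the threshold, at an adjusted p of 0.00796, and leaving out either soft tissue sarcoma library gave -3.70 without replicate 1 and -2.75 without replicate 2.

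Per kilobase of merged exons (RPKM), the scale on which different genes can be compared, Egr1 made up 86.2% and 88.9% of the summed level of the Egr members in NG2 cells. Its share was 93.6% and 91.6% in the osteosarcomas and 88.6% and 71.9% in soft tissue sarcoma, the rest being almost all Egr2. Egr1 was thus the leading Egr gene in all 6 libraries, with its smallest share in soft tissue sarcoma replicate 2.

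One stretch before later starts of Egr2, within the span of the gene, is shown. Among the members with a promoter sequence, which leaves out Egr1, Egr3 and Ier2, only Egr2 held the core of the serum response element. This core is the CArG box to which SRF binds. The promoter sequence at the first start of Egr2 held no CArG box. The stretch is chr10:67537748-67537828 (GRCm38.p6, plus strand, from RefSeq promoter sequences), with the CArG box and the CRE cores described below in capitals.

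Egr2: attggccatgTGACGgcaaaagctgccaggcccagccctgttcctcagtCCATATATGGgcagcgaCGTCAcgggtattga

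Promoter sequences were matched for 7 of the 10 members, in 11 entries because Egr2 has several starts. Members without an entry were Egr1, Egr3 and Ier2. In the 250 bases before each start, on both strands, the CArG box was found in 4 of the 5 Egr2 entries, of which 3 hold the same letters, and in no entry of another member, beside 1.47% of 32851 promoters. Whether these letters are bound in these cells was not measured.

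Nr4a1 and Nr4a3 had the largest estimated falls of the members in both tumour types. Nr4a1 (ENSMUSG00000023034; chromosome 15, 101254269 to 101274795, plus strand), or Nur77, which is switched on by antigen receptor signals in lymphocytes and by many other stimuli, had 1015 and 621 CPM in the NG2 cells. It had 4.55 and 12.2 CPM in the osteosarcomas and 7.09 and 6.20 CPM in the soft tissue sarcomas, so the tumour groups overlapped and were far below the NG2 cells. Nr4a1 fell 98.0-fold in osteosarcoma (log2 fold change -6.62 ± 0.64, SE, n = 2 per group; adjusted p = 0.00552) and 123-fold in soft tissue sarcoma (-6.94 ± 0.65, adjusted p = 0.00813). Without osteosarcoma replicate 1 the osteosarcoma value of Nr4a1 was -6.11, and without replicate 2 it was -7.49.

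Nr4a3 (ENSMUSG00000028341; chromosome 4, 48045153 to 48086447, plus strand), or Nor1, had 81.2 and 74.9 CPM in the NG2 cells and was below 1 CPM in 3 of the 4 tumours. Its values were 0.644 and 0.498 CPM in the osteosarcomas and 2.11 and 0.471 CPM in the soft tissue sarcomas, where the replicates were 4.48-fold apart. Nr4a3 fell 135-fold in osteosarcoma (on the log2 scale -7.08 ± 0.83, adjusted p = 0.00738) and 59.0-fold in soft tissue sarcoma (-5.88 ± 0.78, adjusted p = 0.0111). The soft tissue sarcoma value was -7.36 without its replicate 1 (adjusted p = 0.0679) and -5.24 without its replicate 2 (adjusted p = 0.0649). Nr4a2 (ENSMUSG00000026826; chromosome 2, 57106830 to 57124003, minus strand), or Nurr1, known for dopamine neurons, had 97.6 and 117 CPM in the NG2 cells, 4.74 and 7.25 CPM in the osteosarcomas and 7.91 and 7.31 CPM in the soft tissue sarcomas. Replicates of Nr4a2 were at most 1.53-fold apart, and it fell 17.9-fold in osteosarcoma (-4.16 ± 0.36, adjusted p = 0.00497) and 14.1-fold in soft tissue sarcoma (-3.81 ± 0.36, adjusted p = 0.00806).

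The balance between Nr4a1 and Nr4a2 differed between the groups. On the RPKM scale Nr4a1 made up 88.5% and 81.1% of the summed Nr4a level in the NG2 cells, 50.4% and 65.0% in the osteosarcomas, and 46.7% and 48.4% in soft tissue sarcoma. Nr4a2 made up 7.36% and 13.2% in the NG2 cells, 45.4% and 33.4% in the osteosarcomas, and 45.1% and 49.4% in soft tissue sarcoma. Both shares were without overlap between NG2 cells and tumours, and this difference in shares was not tested.

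The promoters of the Nr4a genes are shown because each of them held several copies of the CRE core, the letters TGACG, or CGTCA when read on the other strand, that CREB recognises. The capitals mark these letters in stretches that lie outside annotated exons, each 5′ to 3′ on the strand of its gene. The Nr4a1 stretch lies within the span of its gene, before a later start. The coordinates (GRCm38.p6) are chr15:101266603-101266820 for Nr4a1, plus strand, chr2:57124100-57124213 for Nr4a2, minus strand, and chr4:48045064-48045114 for Nr4a3, plus strand, where the remaining core lies within an annotated exon and is not shown.

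Nr4a1: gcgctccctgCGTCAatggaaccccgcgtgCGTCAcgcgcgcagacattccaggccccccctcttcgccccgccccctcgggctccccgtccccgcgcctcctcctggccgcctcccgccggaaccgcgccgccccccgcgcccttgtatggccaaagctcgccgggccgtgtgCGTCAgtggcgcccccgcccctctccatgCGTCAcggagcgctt

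Nr4a2: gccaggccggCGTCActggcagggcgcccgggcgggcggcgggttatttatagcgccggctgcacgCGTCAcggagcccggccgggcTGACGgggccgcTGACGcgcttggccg

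Nr4a3: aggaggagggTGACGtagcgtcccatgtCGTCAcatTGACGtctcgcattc

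Each of the 3 Nr4a entries held 4 cores in the 250 bases before its start, a number reached by 0.137% of the 32851 promoters, while at least 1 core was found in 17.8% of them. Over all members with an entry, 6 of 7 had at least 1 core, with none in Klf6. The full palindrome TGACGTCA, found in 1.55% of promoters and containing a core on either strand, was in none of the members' entries. These matches describe letters and were not tested as sites.

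Among the Klf members, Klf6 had the highest level of all 10 genes and Klf2 the largest estimated fall. Klf6 (ENSMUSG00000000078; chromosome 13, 5861482 to 5870394, plus strand), a broadly expressed factor that is induced by injury, had 2178 and 2256 CPM in the NG2 cells, 212 and 135 CPM in the osteosarcomas, and 212 and 224 CPM in the soft tissue sarcomas. Klf6 fell 12.8-fold in osteosarcoma (log2 fold change -3.68 ± 0.34, SE, n = 2 per group; adjusted p = 0.00521) and 10.2-fold in soft tissue sarcoma (-3.35 ± 0.33, adjusted p = 0.00846). It nevertheless stayed the most abundant member per length in every library, at 496 and 514 RPKM in NG2 cells and 30.8 to 51.1 RPKM in the tumours.

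Klf2 (ENSMUSG00000055148; chromosome 8, 72319033 to 72321656, plus strand), which keeps resting lymphocytes quiescent and responds to blood flow in endothelium, had 253 and 242 CPM in the NG2 cells, 9.07 and 8.46 CPM in the osteosarcomas and 5.55 and 3.67 CPM in the soft tissue sarcomas. The 3 groups did not overlap, and the replicates of NG2 cells and of osteosarcoma differed by 1.05-fold and 1.07-fold. Klf2 fell 28.2-fold in osteosarcoma (-4.82 ± 0.34, adjusted p = 0.00419) and 53.4-fold in soft tissue sarcoma (-5.74 ± 0.35, adjusted p = 0.0073).

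Klf4 (ENSMUSG00000003032; chromosome 4, 55527143 to 55532466, minus strand), a factor of pluripotency, monocytes and the vessel wall, had 552 and 664 CPM in the NG2 cells. In osteosarcoma replicates 1 and 2 it had 125 and 36.7 CPM, and in soft tissue sarcoma 34.5 and 17.3 CPM, so its tumour values were spread over the widest range of the Klf members. Klf4 fell 7.53-fold in osteosarcoma (-2.91 ± 0.66, adjusted p = 0.0317) and 23.4-fold in soft tissue sarcoma (-4.55 ± 0.71, adjusted p = 0.015). Without osteosarcoma replicate 1 its osteosarcoma value was -4.08, and without replicate 2 it was -2.28. On the RPKM scale Klf4 held 43.5% of the summed Klf level of the 3 members in osteosarcoma replicate 1, against 22.2% and 25.3% in NG2 cells, 25.4% in osteosarcoma replicate 2, and 18.1% and 9.68% in soft tissue sarcoma.

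Ier2 (ENSMUSG00000053560; chromosome 8, 84661331 to 84662852, minus strand), an early response gene with a single exon whose nuclear protein is linked to cell migration, showed the smallest falls. It had 165 and 147 CPM in the NG2 cells, 32.3 and 23.3 CPM in the osteosarcomas, and 33.6 and 32.3 CPM in the soft tissue sarcomas. Replicates were at most 1.38-fold apart, and Ier2 fell 5.59-fold in osteosarcoma (log2 fold change -2.48 ± 0.29, SE, n = 2 per group; adjusted p = 0.00723) and 4.73-fold in soft tissue sarcoma (-2.24 ± 0.28, adjusted p = 0.0108).

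**Figure D2:**
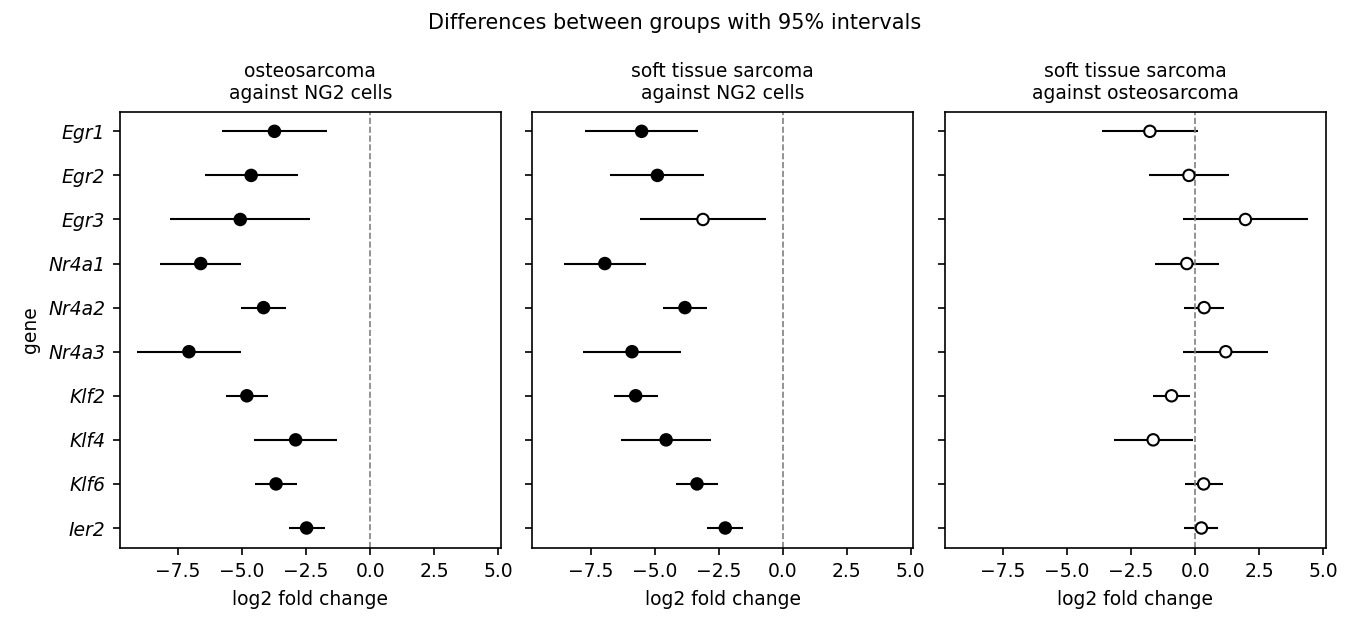
Log2 fold changes of the 10 genes in the 3 comparisons, with 95% intervals from the edgeR fit; filled points passed an adjusted p of 0.05 and open points did not. In osteosarcoma against NG2 cells 10 filled points lie below 0, in soft tissue sarcoma against NG2 cells 9 do and Egr3 is open, and between the tumour types all 10 points are open.

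Ordered by RPKM, the members in NG2 cells ran from Klf6 (mean 505), Egr1 (300.1), Nr4a1 (233), Klf4 (199), Klf2 (134) and Ier2 (102) down to Egr2 (40.2), Nr4a2 (26.4), Nr4a3 (13.0) and Egr3 (1.00). Of 18733 tested genes with an exon length, Klf6 ranked 106 and 104 in the NG2 cell libraries, Egr1 262 and 139, and Nr4a1 193 and 316. Neighbours in this order were not separated where replicates crossed: Egr1 was above Nr4a1 in NG2 cell replicate 2 (383 against 177 RPKM) but below it in replicate 1 (217 against 289 RPKM), and Nr4a1 and Klf4 crossed as well. In the tumours the order changed, since Klf6 and Ier2 kept ranks between 1137 and 3135 while Nr4a1 dropped to ranks between 8237 and 11327. Nr4a1 thus stood in NG2 cells at 233 RPKM on average, above Ier2 at 102, and in soft tissue sarcoma at 1.89 RPKM, below Ier2 at 21.6.

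The estimated fall differed widely among the members. In osteosarcoma it ran from 5.59-fold for Ier2 to 135-fold for Nr4a3, and in soft tissue sarcoma from 4.73-fold for Ier2 to 123-fold for Nr4a1. The members with the smallest falls in osteosarcoma, Ier2, Klf4 and Klf6, kept mean levels of 18.3, 26.5 and 39.5 RPKM there. These are fold changes beside levels from the same libraries, and the differences between members were not tested.

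The tumour types were compared to see whether the same genes stood at other levels in bone and in soft tissue tumours. None of the 10 members passed the threshold with edgeR, where 0.142% of the tested genes were called, 0.0841% higher and 0.0578% lower. At an unadjusted p under 0.05, Klf2 and Klf4 were lower in soft tissue sarcoma, and DESeq2 also called none of the 10 after adjustment. Klf2 had a log2 fold change of -0.92 (95% interval -1.63 to -0.21, adjusted p = 0.22) and Klf4 of -1.64 (-3.18 to -0.09, adjusted p = 0.291), both with groups that did not overlap. The Klf4 value was -0.49 without osteosarcoma replicate 1 and -2.27 without replicate 2. Groups of 5 members overlapped, 2 members were lower in both soft tissue sarcomas, beside 24.5% of tested genes, and 3 were higher in both, Egr3, Nr4a2 and Klf6, beside 25.8%. Some of these groups nearly touched. The nearest osteosarcoma and soft tissue sarcoma libraries had 36.7 and 34.5 CPM for Klf4 and 7.25 and 7.31 CPM for Nr4a2. For Klf6 the nearest libraries of the groups both rounded to 212 CPM. Intervals were narrow for Ier2 (-0.42 to 0.91), Klf6 (-0.41 to 1.07) and Nr4a2 (-0.44 to 1.13). They were wide for Egr1 (-3.65 to 0.12) and Egr3 (-0.49 to 4.41), and a difference of several fold in either gene lay within its interval. The intervals do not show that the tumour types were alike.

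Osteosarcoma replicate 1 differed from replicate 2 in part of the members. It was higher for Egr1 by 4.93-fold, for Egr2 by 3.62-fold and for Klf4 by 3.40-fold, and lower for Nr4a1, at 4.55 against 12.2 CPM. Egr3, also higher in replicate 1, rested on too few counts to rank. Klf2 and Nr4a3 differed by 1.07-fold and 1.29-fold between the same libraries. The replicates came from the tibia and the spine, and with 1 library from each site, site and library cannot be told apart. The 8 skeletal muscle fibre markers summed to 15.6 CPM in replicate 1 and 1230 CPM in replicate 2, the 8 osteoclast markers to 922 and 19939 CPM, and their part in these differences was not tested.

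Of 49 other early response genes listed, 47 were tested. In osteosarcoma 32 fell, 1 rose and 14 did not pass, with a median log2 fold change of -2.68. Of the same 47, 25 fell in soft tissue sarcoma, 2 rose and 20 did not pass, with a median of -1.89. The largest falls in osteosarcoma were those of Fosb, an AP-1 subunit (758-fold), the stress factor Atf3 (128-fold), the antiproliferative gene Btg2 (58.5-fold) and the phosphatase gene Dusp2 (53.6-fold), at adjusted p between 0.00419 and 0.00581. Those in soft tissue sarcoma were Fosb (359-fold), Fos (73.4-fold), Tnfaip3, an inhibitor of NF-kappaB signalling (70.8-fold), and Btg2 (35.1-fold), at adjusted p between 0.0073 and 0.0117. Ccn2, a matrix-associated growth factor gene, rose 9.41-fold in osteosarcoma (adjusted p = 0.0212). In soft tissue sarcoma Fosl1, an AP-1 subunit often induced late, rose 46.2-fold (adjusted p = 0.0073), and Errfi1, a feedback inhibitor of the EGF receptor, rose 6.07-fold (adjusted p = 0.027). Fosl2 in osteosarcoma had a log2 fold change of -0.03 ± 0.75 and Gadd45g of -0.27 ± 0.32, and in soft tissue sarcoma Cebpd had 0.01 ± 0.75 and Ptgs2 -0.43 ± 1.00, all far from the threshold. Egr4, the remaining Egr gene, was not tested because it had at most 0.057 CPM in any library.

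Of 14 other genes of the Klf family, 12 were tested: 4 fell in osteosarcoma and 5 in soft tissue sarcoma, none rose, and the medians were -1.12 and -1.45. Klf9, a glucocorticoid-responsive repressor, fell 7.65-fold in osteosarcoma and 4.26-fold in soft tissue sarcoma (adjusted p = 0.0217 and 0.048), and Klf10, a TGF-beta-inducible factor that is also in the list of early response genes, fell 3.21-fold and 3.06-fold (adjusted p = 0.0194 and 0.0231). Klf5 fell 22.1-fold in osteosarcoma (adjusted p = 0.0374), from NG2 cell libraries that differed, at 1.30 and 7.10 CPM, to 0.133 and 0.249 CPM. In soft tissue sarcoma Klf12 fell 23.7-fold (adjusted p = 0.0395), from 6.73 and 3.37 CPM to 0.067 and 0.370 CPM. Klf14 and Klf17 had 0 counts in all 6 libraries.

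Of 29 regulators and partners tested, 5 fell, 1 rose and 23 did not pass in osteosarcoma, and 6 fell, 1 rose and 22 did not pass in soft tissue sarcoma, with medians of -0.38 and -0.33. The called shares in osteosarcoma were 17.2% lower and 3.45% higher, beside 11% and 10.5% of all tested genes. In soft tissue sarcoma they were 20.7% lower and 3.45% higher, beside 9.4% and 9.89%. Whether these shares differ was not tested. Srf, the gene of the serum response factor, had 10.3 and 38.0 CPM in the NG2 cells, 39.1 and 49.3 CPM in the osteosarcomas and 13.2 and 20.3 CPM in the soft tissue sarcomas, and was named after its values were seen. The largest falls were those of Crem, a cyclic AMP responsive gene that also encodes repressors of CRE sites and is itself induced early, at 31.1-fold in osteosarcoma and 20.4-fold in soft tissue sarcoma (adjusted p = 0.00419 and 0.00735). Foxo1, which activates Klf2 in lymphocytes, fell 5.10-fold and 10.3-fold (adjusted p = 0.0093 and 0.00846). In osteosarcoma Rps6ka1, a kinase of the ERK pathway, fell 3.23-fold (adjusted p = 0.0418), and in soft tissue sarcoma Mef2c fell 7.80-fold (adjusted p = 0.0303). Nab2, a corepressor that binds Egr proteins and is itself an Egr target, rose 4.06-fold in osteosarcoma (adjusted p = 0.0225), from 5.76 and 6.74 CPM to 27.7 and 23.1 CPM. Mapk7, the kinase ERK5 upstream of Klf2, rose 3.52-fold in soft tissue sarcoma (adjusted p = 0.0452).

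**Figure D3:**
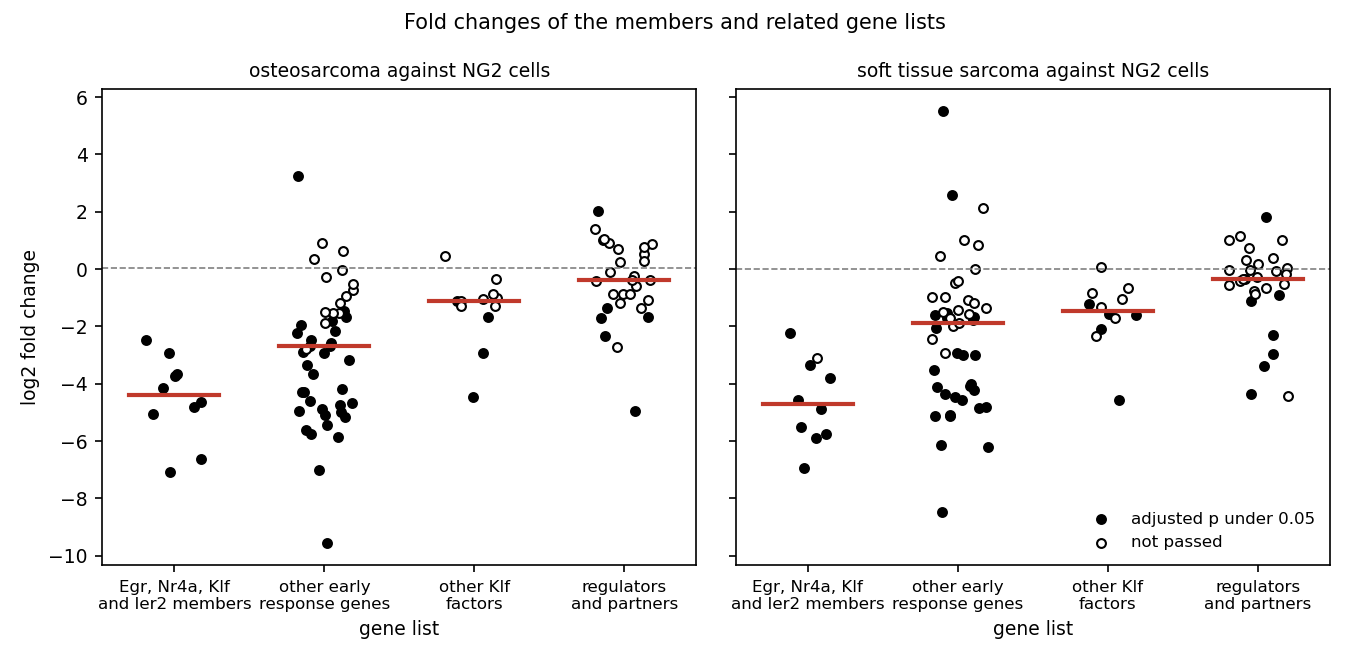
Log2 fold changes of the members and of 3 related gene lists in both tumour types against NG2 cells; filled points passed an adjusted p of 0.05, red lines are list medians and the dashed line is the median of all tested genes. The medians in osteosarcoma were -4.41 for the members, -2.68 for other early response genes, -1.12 for other Klf factors and -0.38 for regulators and partners.

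The genes whose pattern over the 6 libraries lay closest to the mean of the members were Jund, Ezr, Clk1, Gm16185 and Dennd4a, out of 7787 genes with a mean of at least 20 CPM. Likeness was the root mean square distance between centred log2(CPM + 1) profiles, and it was 0.267 for Jund and 0.322 to 0.335 for the others. The members themselves lay at 0.415 (Klf6) to 1.27 (Nr4a1) from their own mean. Jund, an AP-1 subunit, had 233 and 179 CPM in the NG2 cells, 12.3 and 8.85 CPM in the osteosarcomas, and 11.3 and 13.2 CPM in the soft tissue sarcomas. Clk1, a kinase of splicing factors, had 1578 and 1308 CPM in the NG2 cells and 86.8 to 178 CPM in the tumours.

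Markers of several blood and vessel cell types were also higher in the NG2 cells. In osteosarcoma 8 of 8 B cell, 7 of 8 T cell, 6 of 8 neutrophil and 4 of 8 endothelial markers fell, and in soft tissue sarcoma 8, 7, 3 and 4 did. The 8 B cell markers summed to 5500 and 1824 CPM in the NG2 cells and 2.95 to 14.4 CPM in the tumours, where 6 of them stayed below 1 CPM and Ms4a1, Blk, Fcer2a or Pax5 had 0 counts in 1 or 2 tumour libraries. The 8 T cell markers summed to 537 and 739 CPM in the NG2 cells and 5.68 to 28.5 CPM in the tumours, with Cd3g at 0 in osteosarcoma replicate 1. The 8 neutrophil markers summed to 71.4 and 3529 CPM in the NG2 cells and 11.5 to 27.8 CPM in the tumours, with Ltf, Elane or Ngp at 0 in some of them. The 8 endothelial markers summed to 1029 and 1779 CPM in the NG2 cells and 132 to 401 CPM in the tumours. The 8 pericyte and mural markers summed to 1114 and 1764 CPM in the NG2 cells. Their sums were 581 and 1590 CPM in the osteosarcomas and 1031 and 664 CPM in the soft tissue sarcomas. Of these pericyte and mural markers 2 fell and 1 rose in osteosarcoma, and 2 fell in soft tissue sarcoma. Of the 8 macrophage markers 4 rose in each tumour type, and their sums were 733 and 1592 CPM in the NG2 cells and 1924 to 5086 CPM in the tumours. Lymphocytes, neutrophils and endothelium express several of the members, and the part of these cells in the falls was not tested.

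Between the NG2 cell replicates the B cell sum differed by 3.01-fold, with replicate 1 higher. The neutrophil sum differed by 49.4-fold, the macrophage sum by 2.17-fold, the endothelial sum by 1.73-fold and the T cell sum by 1.38-fold, each with replicate 2 higher. The members differed by 1.04-fold (Klf6) to 1.77-fold (Egr1), and their summed CPM was 1.11-fold higher in replicate 2. Without NG2 cell replicate 1, the median log2 fold change of the members was -4.54 in osteosarcoma and -4.88 in soft tissue sarcoma. Without NG2 cell replicate 2 the medians were -4.21 and -4.52. Fewer members were called in these fits, and fewer of all tested genes were called as well. The osteosarcoma calls lost without either NG2 cell library were Egr1, Egr3 and Klf4, joined by Egr2 without replicate 2, and those lost in soft tissue sarcoma were Egr1, Egr2 and Klf4. Egr1, Egr3 and Klf4 also lost their osteosarcoma call without either soft tissue sarcoma library, which share the estimate of spread. All 10 had log2 fold changes below 0 in each of these fits.

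**Figure D4:**
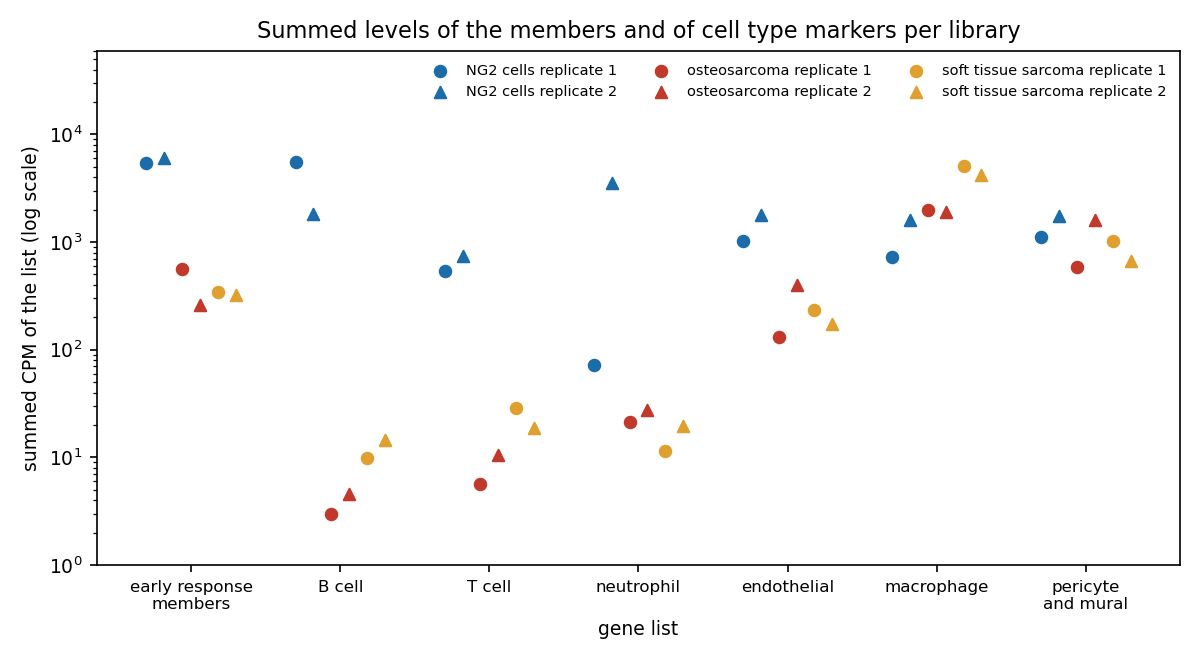
Summed CPM (log scale) of the 10 early response genes and of 8 markers for each of 6 cell types in every library; circles are replicate 1 and triangles replicate 2. The members and the B cell, T cell and endothelial markers are higher in both NG2 cell libraries than in any tumour, and the neutrophil sums of the NG2 cell libraries lie far apart, at 71.4 and 3529 CPM. The pericyte and mural sum of osteosarcoma replicate 2 lies between those of the NG2 cell libraries.

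With soft tissue sarcoma replicate 1 or replicate 2 left out, edgeR called 0 of the 10 members, and 0 of the 19024 genes, in soft tissue sarcoma against NG2 cells, while 9 members were lower at an unadjusted p under 0.05 in each fit. With 2 libraries a side, the smallest exact permutation p is 0.333, so no such test of a single gene could pass. Since only the NG2 cells are described as sorted, sorting, cell types and tumour state cannot be told apart in this design.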

How the data were processed

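Polyadenylated RNA was measured in 6 mouse libraries. The labels' protocols give a Trizol extraction, about 10 ng of input, oligo(dT)-primed reverse transcription with template switching, and 20 cycles of PCR. The deposited values, made by the authors, are raw read counts per Ensembl gene. The submitters' processing notes name STAR and HTSeq, besides cutadapt, Trim Galore, FastQC and DESeq2, and the builds GRCm38 and mm10; their roles and versions, the annotation release and the strand setting were not given in the sources used here. There were no molecular identifiers, so reads may be PCR copies, and intervals cover the spread between libraries as the model estimates it.

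From the deposited counts, edgeR 4.0.16 (R 4.3.3) compared the groups with quasi-likelihood F tests in 1 model of all 6 libraries without covariates, after TMM scaling and filterByExpr with the groups (at least 10 counts, 15 in total), leaving 19024 of 38561 genes. Closing counters were left out. The model had 3 residual and 3.04 prior degrees of freedom and a common dispersion of 0.334. The p-values were adjusted by Benjamini-Hochberg over all tested genes. The standard error is the log2 fold change divided by the root of F, and 95% intervals use the t distribution with 6.04 degrees of freedom. Verbs such as rose and fell mark called genes. Positions and merged exon lengths came from GENCODE M21 (GRCm38), where 36723 IDs were found, and promoter sequences from RefSeq (GRCm38.p6). The functions were tested on simulated counts.

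The members, lists and tests were chosen with earlier results of these data known. Of the lists, the text names all 10 members; the 4 largest called falls and rises and the 2 largest p of the early response list; the 3 largest called changes in each direction of the lists of other Klf genes, regulators and targets; and the 5 genes nearest to the mean profile; some genes of the lists are not reported here by name. Alternatives were RLE size factors (the type used by DESeq2), total counts, no immunoglobulin and mitochondrial genes, no low count filter, DESeq2 1.42.0, fits of 2 groups, a replicate block, and leaving out each library.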

Additional observations from a re-analysis of the deposited data

How the results depend on the processing

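All members with a value had log2 fold changes below 0 against NG2 cells in each of the alternatives run, and members called higher stayed at 0 in every comparison. Members called lower ranged from 6 to 10 in osteosarcoma and from 0 to 10 in soft tissue sarcoma when each library was left out, and stayed at 0 between the tumour types. A fit of the 2 groups alone called 7 in osteosarcoma and 10 in soft tissue sarcoma, and DESeq2 called 10 in both. In soft tissue sarcoma against NG2 cells the fits without either soft tissue sarcoma library called 0 genes; the cause was not tested. Between the tumour types, values that missed the threshold changed sign when a library was left out: Egr2 ran from -0.88 to 0.98, above 0 without osteosarcoma replicate 1 and, at 0.16, without soft tissue sarcoma replicate 1. Nr4a1 ran from -0.86 to 0.55, above 0 without osteosarcoma replicate 2, and Nr4a3 from -0.29, without soft tissue sarcoma replicate 1, to 1.88; the cause was not tested. Over all genes, 1992 higher and 2094 lower calls in osteosarcoma became 3363 and 3531 with DESeq2, 733 and 1175 with 2 groups, and 1247 and 1413 with the block. In soft tissue sarcoma, 1882 and 1789 became 3153 and 3286 with DESeq2, 2434 and 2584 with 2 groups, and 1105 and 1104 with the block. Between the tumours, 16 and 11 became 1144 and 772 with DESeq2, 247 and 162 without a filter, 0 and 0 with 2 groups, and 4 and 4 with the block. Leaving out a library gave 598 to 1636 higher and 745 to 1906 lower calls in osteosarcoma, 0 to 2445 and 0 to 2648 in soft tissue sarcoma, and 0 to 178 and 0 to 127 between the tumours. Total counts moved the median of all genes in soft tissue sarcoma to 0.15. With the replicate number as a block, 10 and 9 members were called lower, the same numbers as without it; the numbers share only a label, since deviations of same-numbered libraries correlated at 0.08, -0.02 and -0.11 between groups. Egr3 in osteosarcoma is limited by its low counts, 11 and 1, at 0.208 and 0.0355 CPM.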

Other observations

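Genes described elsewhere as targets of the members were listed as well, and this list holds many leukocyte genes. Of 18 tested, 9 fell, 2 rose and 7 did not pass in osteosarcoma, and 7 fell, 1 rose and 10 did not pass in soft tissue sarcoma, with medians of -2.09 and -1.88 against 0.04 and 0.00 over all genes. Among the largest falls were those of Cd69, an early activation marker of lymphocytes, from 783 and 458 CPM in NG2 cells to at most 2.95 CPM in a tumour, and Cd83, a marker of activated B cells and dendritic cells, from 5282 and 3714 CPM to 9.91 to 132 CPM. The edgeR adjusted p of Cd69 was 0.0306 for osteosarcoma and 0.0262 for soft tissue sarcoma, and that of Cd83 was 0.00419 and 0.00806. Other targets rose: Pdgfa, a growth factor gene, rose 7.22-fold in osteosarcoma (adjusted p = 0.0202), to 277 and 110 CPM from 34.1 and 19.5 CPM, and F3, the gene of tissue factor, rose 26.1-fold in soft tissue sarcoma (adjusted p = 0.0095), to 106 and 235 CPM from 7.73 and 5.32 CPM. Nab2 was the other target that rose in osteosarcoma.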
